A study of Mus musculus with 9 samples.

Results

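The autophagy machinery and its cargo receptors were followed through RNA sequencing of mouse adult fibroblasts (MAFs) exposed to DPI. The set is a list of 35 gene symbols, arranged here in 6 roles: initiation (5 genes), nucleation (5), membrane supply (5), conjugation (10), the ATG8 family (5) and cargo receptors (5). All 35 were found among the 53465 genes of the count table, and all 35 passed the filter on low counts that left 14088 genes for testing. The rule that lists the members uses no measured value, though the list was chosen with earlier results of these data known.

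The study is about how targeting of the flavin cofactor FMN bears on the assembly of respiratory complex I, and DPI is read here as diphenyleneiodonium, an inhibitor of enzymes that carry a flavin. Its 3 groups are MAFs given DPI for 72 h, MAFs given DPI for 24 h, and MAFs labelled as control, with 3 libraries in each. The labels name no genotype, strain, age, dose or vehicle, and do not say when the control cells were harvested. Time in culture and DPI therefore cannot be told apart. Nothing states that replicate libraries are separate cultures either, so p-values measure only the spread between libraries, which may be technical.

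Autophagy wraps cytoplasm and organelles in a membrane that closes and then fuses with the lysosome. The ULK complex starts the process, the class III lipid kinase complex around Beclin 1 marks the site, ATG9 and ATG2 bring lipid, and a pair of conjugation systems that resemble ubiquitin transfer attach ATG8 proteins to the growing membrane. Some cargo receptors bind both ubiquitinated cargo and ATG8 proteins, and the receptor p62 is itself broken down by the process, so transcript levels do not report how fast autophagy runs.

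Depth ranged from 15292736 to 17923656 counts per library. One library was unlike the rest of its group. On principal component 2 control replicate 2 scored 44.2, while control replicates 1 and 3 scored 14.2 and 18.04. In it the members' levels also ran with transcript length. Of the 8 members with exons over 8 kb, 7 were lower in control replicate 2 than in the mean of the other controls, while of the 8 under 3 kb only 2 were lower. Across the 35 members, which share these libraries, Spearman's rho of exonic length and that log2 ratio was -0.55, and over 14071 genes of the whole table it was -0.43. Results that change without control replicate 2 are given with and without it below. Of 8 fibroblast markers, 6 could be tested, and Col1a1 averaged 3124 CPM (counts scaled to the library's total, TMM-normalized) over the 9 libraries, while Thy1 and Lum were at or near 0. The markers' summed level was 8484 to 9972 CPM in DPI 72 h, 9233 to 9659 CPM in DPI 24 h and 5232 to 5413 CPM in control. Col1a1, Col1a2 and Vim made up most of it. All 6 rose at DPI 24 h against control (edgeR, adjusted p under 0.05). At DPI 72 h against control Pdgfra, Pdgfrb and Dcn did not pass, with log2 changes of -0.097, 0.096 and -0.23. Against DPI 24 h they fell, by -0.97, -0.82 and -1.65, while Vim rose. Epithelial markers summed to 6.44 to 6.67, 1.35 to 1.58 and 1.38 to 2.18 CPM in the same groups, and macrophage markers to 2.37 to 3.03, 4.34 to 4.93 and 4.03 to 5.41 CPM, with Adgre1 at 0. Each sum was mostly 1 gene. Krt8 averaged 3.87, 1.21 and 1.065 CPM in these groups, and Cd68 2.42, 4.19 and 4.325 CPM. Endothelial, adipocyte and skeletal muscle markers each summed to at most 4.098 CPM in any library. Their part in the results was not tested. In bulk RNA, fewer cells of a type and less RNA per cell cannot be told apart.

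Per exonic length, a receptor gene and 3 ATG8 genes stood above the other members. Exonic length is the union of all annotated exons, 7.52 kb for Map1lc3b beside 2.01 kb for Gabarapl1. Transcripts that leave out part of the union would have a higher level per kb. The lengths in use were not measured, so the order depends on the union lengths. Sqstm1 had 286.9 ± 23.96 CPM per kb of exon in control (SD, n = 3), Gabarap 113.8 ± 15.6, Gabarapl1 46 ± 1.68 and Gabarapl2 34.05 ± 6.74. Each of these was separated from the next in order by more than both SDs. From Tax1bp1 at 22.3 ± 1.5 CPM per kb down to Ulk1 at 10.1 ± 0.671, neighbours in the order did not differ beyond their SDs. The lowest were Atg14 at 2.61 ± 0.0918, Atg10 at 1.76 ± 0.243 and Optn at 0.605 ± 0.117 CPM per kb, the last with too few counts for a precise change.

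The members took a smaller part of the library with DPI, mostly through Sqstm1. The 35 genes summed to 2466, 2415 and 2372 CPM in DPI 72 h, 2793, 2756 and 2775 CPM in DPI 24 h, and 2986, 3080 and 2949 CPM in control. Without Sqstm1 the sums were 1880, 1878 and 1827 CPM in DPI 72 h, 2111, 2057 and 2096 CPM in DPI 24 h, and 2059, 2025 and 2042 CPM in control. In the first sums the 3 groups did not overlap. In the second the DPI 72 h libraries were the lowest, while DPI 24 h and control overlapped.

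Most members did not pass the test in any comparison, and none changed by 2-fold. At DPI 72 h against control, 4 of 35 fell and 0 rose (edgeR quasi-likelihood test, adjusted p under 0.05 over all genes). That is 11.4% of members called, beside 8.56% of all genes, or 11.4% beside 3.83% for falling genes and 0 beside 4.73% for rising ones. With DESeq2 and with limma voom 0 members rose as well. At an unadjusted p under 0.05 in edgeR 0 members were higher and 12 lower. The 12 are 34.3% of members, beside 11.1% of all genes, and for higher genes 0 stands beside 11.4%. At that same limit 6 were higher and 6 lower at DPI 24 h against control, 17.1% each way beside 18.1% and 18.5% of all genes, and 2 higher and 10 lower at DPI 72 h against DPI 24 h, 5.71% and 28.6% beside 15.9% and 17.1%. Sqstm1 and Gabarap kept this call in 15 of 15 alternative settings, while those of Calcoco1 and Atg13 were lost in 11 and 9. At DPI 24 h against control, 3 rose and 3 fell, 17.1% of members beside 24.7% of all genes, and 8.57% in each direction beside 12.4% rising and 12.3% falling. Between the times, at DPI 72 h against DPI 24 h, 7 fell and 1 rose, 22.9% of members beside 21.3% of all genes. This is 20% beside 11.2% for falling genes and 2.86% beside 10.1% for rising ones. In all, 10 members were called in at least 1 comparison and 25 in none.

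The median log2 change of the 35 members was -0.11 at DPI 72 h against control, -0.057 at DPI 24 h against control and -0.11 at DPI 72 h against DPI 24 h. Over all genes tested these medians were -0.0050, -0.0056 and 0.0019. Of the 35 members, 28 (80%) had fitted changes below 0 at DPI 72 h against control, beside 51.1% of all genes. The count was 21 (60% beside 50.7%) at DPI 24 h against control and 24 (68.6% beside 49.8%) at DPI 72 h against DPI 24 h. Changes lay within 0.25 of 0 on the log2 scale for 28, 26 and 23 members in these comparisons, which is 80%, 74.3% and 65.7% beside 67.3%, 54.1% and 57.8% of all genes. The comparisons share libraries: both against control use the same 3 controls, and DPI 72 h against DPI 24 h reuses the treated ones.

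**Figure D1:**
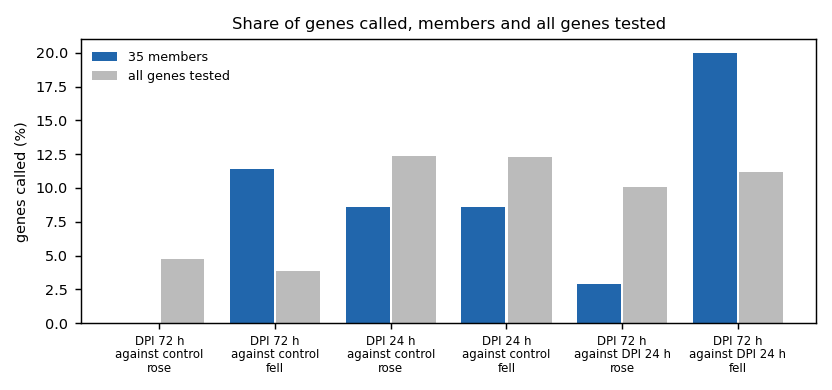
Bars give the percentage of genes called (edgeR adjusted p under 0.05) among the 35 members (blue) and among all 14088 genes tested (grey), for each comparison and direction. The members' share is above that of all genes for falling genes at DPI 72 h, 11.4% beside 3.83% against control and 20% beside 11.2% against DPI 24 h.

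**Figure D2:**
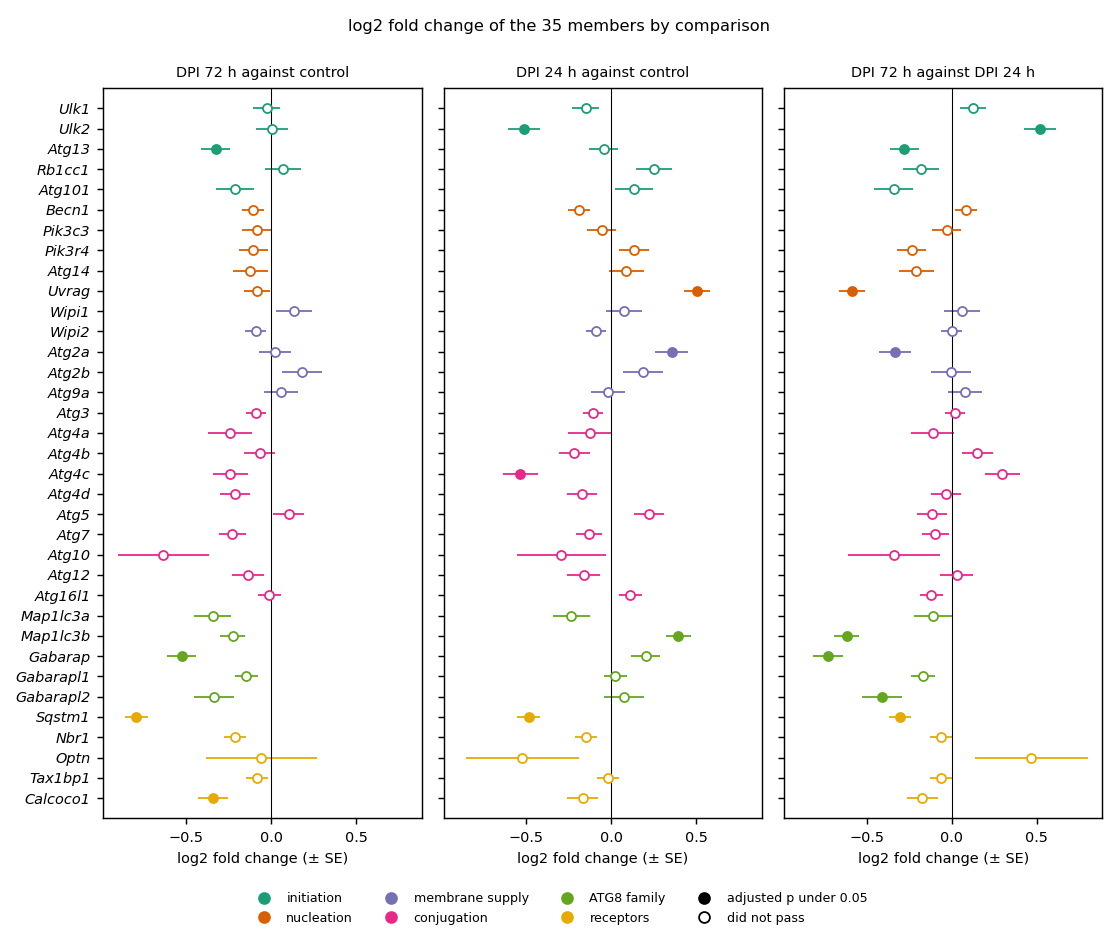
Points are the fitted log2 fold changes of the 35 members with their standard errors, coloured by role, in the 3 comparisons; filled points have an adjusted p under 0.05. Filled points number 4, 6 and 8 from left to right, Sqstm1 is filled in all 3 panels, and the widest bars belong to Atg10 and Optn, the lowest members per exonic length.

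The promoters of members that moved are shown so that genes with opposite courses can be set side by side. Sqstm1 was lowest in DPI 72 h, Map1lc3b and Uvrag were highest in DPI 24 h, and Ulk2 was lowest in DPI 24 h. Atg3 did not pass any test and is shown for its motif. Each run is the 150 bases just upstream of the start, from RefSeq (GRCm38.p6), read 5′ to 3′ on the gene's strand, leaving out bases that lie inside the GENCODE gene. Capitals mark CACGTG, the core of the element bound by TFEB, a regulator of lysosome and autophagy genes, or TGACNNNGC, the core of the antioxidant response element.
Sqstm1 (chr11:50210828-50210977, minus strand): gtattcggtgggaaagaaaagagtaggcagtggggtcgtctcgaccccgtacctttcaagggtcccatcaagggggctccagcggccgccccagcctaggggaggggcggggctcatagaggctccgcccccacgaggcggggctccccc
Map1lc3b (chr8:121590211-121590360, plus strand): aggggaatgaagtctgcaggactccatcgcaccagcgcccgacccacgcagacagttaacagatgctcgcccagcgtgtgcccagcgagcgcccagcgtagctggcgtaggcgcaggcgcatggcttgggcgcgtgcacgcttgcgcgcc
Uvrag (chr7:99141145-99141294, minus strand): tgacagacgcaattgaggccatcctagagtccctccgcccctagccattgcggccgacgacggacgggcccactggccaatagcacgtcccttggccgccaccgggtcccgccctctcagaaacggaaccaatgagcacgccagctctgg
Ulk2 (chr11:61855093-61855242, minus strand): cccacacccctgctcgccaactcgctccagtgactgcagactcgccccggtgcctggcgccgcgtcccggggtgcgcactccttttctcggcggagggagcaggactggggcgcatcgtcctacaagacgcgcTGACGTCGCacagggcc
Atg3 (chr16:45158635-45158784, plus strand): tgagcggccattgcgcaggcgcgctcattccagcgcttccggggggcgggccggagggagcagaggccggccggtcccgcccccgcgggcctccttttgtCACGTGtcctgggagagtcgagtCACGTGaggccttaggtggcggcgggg

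The printed stretches of Sqstm1, Map1lc3b and Uvrag hold neither motif, that of Ulk2 holds TGACNNNGC and that of Atg3 holds CACGTG at 2 places. The RefSeq windows run from 250 bases before to 50 after the start, and 29 of the 35 members have one (33 windows). Windows were not at hand for Atg12, Map1lc3a, Atg16l1, Rb1cc1, Pik3c3 and Becn1. CACGTG, read on both strands, was in 12.1% of the member windows, those of Atg14, Atg3, Atg5 and Atg7, and in 7.15% of all 32851 windows. TGACNNNGC was in 12.1%, those of Atg13, Map1lc3b, Tax1bp1 and Ulk2, and in 12.4% of all windows. In Map1lc3b the match lies after the start. GTAAACA, bound by FOXO factors, and TGATGNAA, bound by ATF4, were in 0 member windows, and in 3.65% and 3.97% of all windows. No member window holds both of the first 2 motifs, and a match is only a match of letters. Member windows were richer in G and C, with a median of 60% beside 52.7% of bases in all windows, and its part in these shares was not tested.

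In the initiation complex, the kinase gene Ulk2 was lower at DPI 24 h alone, while its paralog Ulk1 did not pass in any comparison. Ulk2 (chr11:61775649-61855073, minus strand) had 64.3, 61.5 and 56.6 CPM in DPI 72 h, 46.2, 43.2 and 37.9 CPM in DPI 24 h and 67.1, 59.7 and 55.0 CPM in control. The 3 DPI 24 h libraries lay below all the others, and the DPI 72 h and control ranges overlapped. Its log2 change was -0.51 ± 0.096 (SE) at DPI 24 h against control (edgeR adjusted p = 0.00285) and 0.52 ± 0.096 at DPI 72 h against DPI 24 h (edgeR adjusted p = 0.00293). Against control at 72 h it was 0.0052, with a 95% interval of -0.18 to 0.19 (edgeR adjusted p = 0.985). Ulk1, which encodes the better known kinase of the pair, averaged 64.1 ± 5.26 CPM in DPI 72 h, 58.8 ± 2.599 CPM in DPI 24 h and 65.3 ± 4.36 CPM in control (SD, n = 3 each). Its log2 change at DPI 24 h against control was -0.15 ± 0.079 (edgeR adjusted p = 0.195), and without control replicate 2 it was -0.20 (edgeR adjusted p = 0.0434). The changes of the paralogs were not tested against each other.

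The regulatory subunit gene Atg13 (chr2:91674618-91710576) was lower at 72 h, by less and with less certainty. It had 22.96, 21.8 and 26.7 CPM in DPI 72 h, 29.7, 28.45 and 28.5 CPM in DPI 24 h and 29.55, 31.2 and 28.7 CPM in control. The DPI 72 h libraries lay below every other, with the DPI 24 h and control ranges overlapping. The log2 change was -0.32 ± 0.085 at DPI 72 h against control and -0.28 ± 0.085 at DPI 72 h against DPI 24 h (edgeR adjusted p = 0.0386 and 0.0393). These calls were lost in 9 and in 10 of 15 alternative settings, where the adjusted p ran from 0.0167 to 0.157 and from 0.0154 to 0.152 (edgeR, DESeq2 and limma). Atg101, whose product stabilises ATG13 and which had the highest level per kb among initiation genes, had 18.7, 18.1 and 21.2 CPM in DPI 72 h, 25.7, 22.96 and 24.8 CPM in DPI 24 h and 21.2, 26.15 and 19.7 CPM in control. Its 72 h libraries were below those of 24 h, while the control range reached across both. The log2 change at DPI 72 h against DPI 24 h was -0.34 ± 0.11 (edgeR adjusted p = 0.0541, and 0.0081 without control replicate 2). Rb1cc1, the scaffold FIP200 and the member with the longest exons, had 116, 119 and 117 CPM in DPI 72 h, 134, 133 and 133 CPM in DPI 24 h and 122, 89.3 and 125 CPM in control, where replicate 2 was the lowest of all 9 libraries. Its log2 change at DPI 72 h against DPI 24 h, which uses no control level, was -0.18 ± 0.11 (edgeR adjusted p = 0.265 with all 9 libraries in the estimate of spread, and 0.00222 without control replicate 2).

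Among nucleation genes, Uvrag rose at DPI 24 h and was back near control at 72 h. UVRAG binds Beclin 1 and acts in the maturation of autophagosomes and in endosomal traffic. Uvrag (chr7:98885021-99141141, minus strand) had 30.5, 27.9 and 28.3 CPM in DPI 72 h, 42.8, 44.35 and 43.1 CPM in DPI 24 h and 32.02, 27.8 and 32.2 CPM in control. All 3 DPI 24 h libraries were above all others, and the DPI 72 h and control ranges overlapped. Its log2 change was 0.50 ± 0.075 at DPI 24 h against control and -0.59 ± 0.076 at DPI 72 h against DPI 24 h (edgeR adjusted p = 0.000781 and 0.000296). Against control at 72 h the change was -0.085, with a 95% interval of -0.24 to 0.066 (edgeR adjusted p = 0.578). An antisense gene, Gm45187, covers 17.6% of its exonic length with a mean count of 3.56, against 569 for Uvrag.

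The other 4 nucleation genes did not pass in any comparison. With Uvrag, 20% of this role was called at DPI 24 h against control, beside 24.7% of all genes. At DPI 72 h against DPI 24 h the share was again 20%, beside 21.3%. Becn1, which encodes Beclin 1 and had the highest level per kb of the 5, had 102, 112 and 109.6 CPM in DPI 72 h, 105, 103 and 97.03 CPM in DPI 24 h and 110.5, 122 and 116 CPM in control. The DPI 24 h libraries were below the controls without overlap, and DPI 72 h overlapped both. The log2 change at DPI 24 h against control was -0.19 ± 0.064 (edgeR adjusted p = 0.0508, just over the threshold, with 0.0425 in DESeq2 and 0.0487 in limma voom, and 0.0483 without control replicate 2). Exons of Cntd1 on the other strand cover 43.9% of the Becn1 exonic length, with a mean count of 21 against 1799, and the strand setting of the counting is not given in the sources used here. Pik3c3, the lipid kinase VPS34 itself, had log2 changes of -0.086 at DPI 72 h and -0.057 at DPI 24 h against control. Its regulatory subunit gene Pik3r4 had -0.10 and 0.13 in the same comparisons, and -0.24 ± 0.087 at DPI 72 h against DPI 24 h (edgeR adjusted p = 0.0801, and 0.0149 without control replicate 2). Atg14, which directs the complex to autophagy, had -0.12 and 0.088.

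In membrane supply, Atg2a was the single gene called. It is 20% of this role, beside 24.7% of all genes called at DPI 24 h against control and 21.3% at DPI 72 h against DPI 24 h. ATG2 proteins move lipid from the endoplasmic reticulum into the growing membrane. Atg2a (chr19:6241668-6262335) had 47.4, 42.1 and 37.5 CPM in DPI 72 h, 52.2, 53.9 and 53.8 CPM in DPI 24 h and 45.4, 37.3 and 42.5 CPM in control. The DPI 24 h libraries lay above the rest, with the DPI 72 h and control ranges overlapping. Its log2 change was 0.35 ± 0.095 at DPI 24 h against control and -0.33 ± 0.095 at DPI 72 h against DPI 24 h (edgeR adjusted p = 0.0198 and 0.03). Leaving out any of the DPI 24 h libraries ended the first call (adjusted p 0.0504 to 0.069, edgeR), and the second was lost in 5 of 15 settings (adjusted p 0.00443 to 0.124). Its paralog Atg2b, at 13.5 kb of exon, had 111, 113 and 107 CPM in DPI 72 h, 113, 107 and 112 CPM in DPI 24 h and 112, 75.5 and 105 CPM in control, with replicate 2 the lowest of the 9. Wipi2, a reader of the lipid mark with the highest level per kb of this role, had 123, 113 and 111 CPM in DPI 72 h, 116, 113 and 118 CPM in DPI 24 h and 128, 119 and 123 CPM in control, and its log2 changes against control were -0.091 at 72 h and -0.091 at 24 h. Wipi1, another reader of that mark, and Atg9a, the scramblase of the seed vesicles, had changes between -0.019 and 0.13 in the 3 comparisons.

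Of the 10 conjugation genes, 1 was called and 9 were not. The call was a fall at DPI 24 h against control, 10% of this role beside 12.3% of all genes falling and 24.7% called either way. Atg4c, 1 of the 4 proteases that trim ATG8 proteins and release them from lipid (chr4:99193934-99259787), had 18.4, 15.2 and 15.9 CPM in DPI 72 h, 13.7, 13.9 and 12.7 CPM in DPI 24 h and 17.85, 20.1 and 20.5 CPM in control. Its DPI 24 h libraries were below all others, and the DPI 72 h range reached into that of the controls. The log2 change was -0.54 ± 0.10 at DPI 24 h against control (edgeR adjusted p = 0.00342) and -0.24 ± 0.10 at DPI 72 h against control (edgeR adjusted p = 0.194). Against DPI 24 h it was 0.30 ± 0.10 at DPI 72 h (edgeR adjusted p = 0.066, and 0.0465 without control replicate 2). At DPI 24 h against control the log2 changes of Atg4a, Atg4b and Atg4d were -0.13, -0.22 and -0.18, and none passed. Exons of Kri1, with a mean count of 578 against 301, cover 19.3% of Atg4d on the other strand. The enzymes of the cascades, Atg7 (E1-like), Atg3 and Atg10 (E2-like), and the conjugate genes Atg5, Atg12 and Atg16l1, did not pass either. Atg3, the highest per kb, had 62.6, 63.3 and 64.05 CPM in DPI 72 h, 62.9, 62.4 and 62.02 CPM in DPI 24 h and 65.3, 71.1 and 65.6 CPM in control. Both DPI groups were below the controls without overlap, with log2 changes of -0.09 and -0.11 at 72 h and 24 h that did not pass (edgeR adjusted p = 0.409 and 0.203). Atg10, near the lower limit, averaged 1.945 ± 0.346 CPM in DPI 72 h, 2.46 ± 0.551 CPM in DPI 24 h and 3.03 ± 0.4175 CPM in control (SD, n = 3 each).

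Of the 5 ATG8 genes, 3 were lower at DPI 72 h than at DPI 24 h, a comparison in which 11.2% of all genes fell, and the call of 1 of them, Gabarapl2, was lost in 6 of 15 settings. These genes encode the small proteins that are joined to lipid on both faces of the membrane. Gabarap (chr11:69991143-69994951, plus strand) had 146, 146 and 145 CPM in DPI 72 h, 239, 234 and 250.3 CPM in DPI 24 h and 194, 243 and 192 CPM in control. The DPI 72 h libraries lay far below all others, and control replicate 2 stood within the DPI 24 h range while the other controls were below it. The log2 change was -0.53 ± 0.087 at DPI 72 h against control and -0.73 ± 0.087 at DPI 72 h against DPI 24 h (edgeR adjusted p = 0.00298 and 0.000174). At DPI 24 h against control it was 0.20 ± 0.086 (edgeR adjusted p = 0.116), and without control replicate 2 it was 0.32 (edgeR adjusted p = 0.000148), so that 1 library decides this call.

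Map1lc3b, which encodes LC3B, the usual marker of autophagosomes (chr8:121590361-121598760, plus strand), had 96.8, 101 and 92.75 CPM in DPI 72 h, 149, 141 and 156 CPM in DPI 24 h and 108, 124 and 107 CPM in control. None of the 3 groups overlapped another: DPI 24 h was highest and DPI 72 h lowest. It rose at DPI 24 h against control, by 0.39 ± 0.073, and was lower at DPI 72 h than at DPI 24 h, with a change of -0.62 ± 0.074 (edgeR adjusted p = 0.00289 and 0.000172). Its change of -0.23 ± 0.074 at DPI 72 h against control did not pass (edgeR adjusted p = 0.0928). Gabarapl2, or GATE-16, at chr8:111940703-111953612, had 63.6, 60.97 and 63.7 CPM in DPI 72 h, 85.8, 76.9 and 87.7 CPM in DPI 24 h and 73.4, 96.9 and 67.2 CPM in control. Its DPI 72 h libraries were the lowest, and the controls, led by replicate 2, spanned the DPI 24 h range. It was lower at DPI 72 h than at DPI 24 h, with a log2 change of -0.41 ± 0.12 (edgeR adjusted p = 0.0302), with an adjusted p of 7.11e-05 to 0.119 over the settings. Without control replicate 2 its change at DPI 24 h against control was 0.25 and passed (edgeR adjusted p = 0.0126), while with all libraries it was 0.075 ± 0.12 (edgeR adjusted p = 0.692). Gabarapl1 and Map1lc3a did not pass: at DPI 72 h against control their log2 changes were -0.15 ± 0.068 and -0.34 ± 0.11 (edgeR adjusted p = 0.237 and 0.0871). At DPI 72 h against DPI 24 h, Gabarapl1 changed in the fit by -0.17 ± 0.068 (edgeR adjusted p = 0.109, and 0.0402 without control replicate 2).

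**Figure D3:**
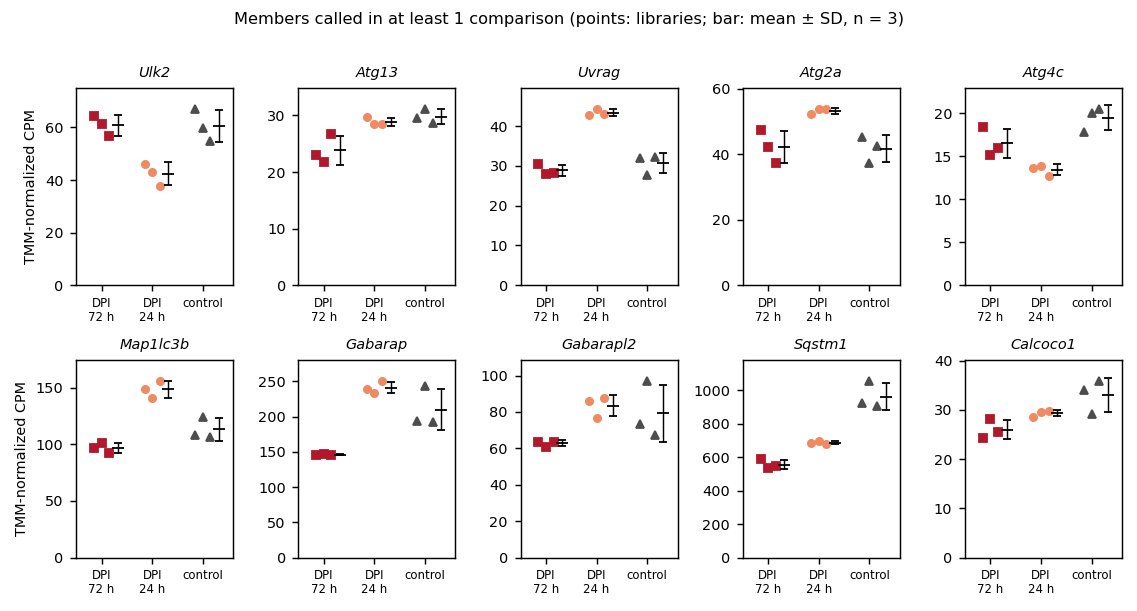
TMM-normalized CPM of the 10 members called in at least 1 comparison, in DPI 72 h (red squares), DPI 24 h (orange circles) and control (grey triangles); each point is a library and bars are mean ± SD (n = 3). Sqstm1 is lowest in DPI 72 h and highest in control, Map1lc3b and Uvrag peak in DPI 24 h, and Ulk2 and Atg4c are lowest there.

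Per exonic length, the 5 ATG8 genes together had 175.5, 174 and 178.5 CPM per kb in DPI 72 h, 254.5, 239.8 and 256 CPM per kb in DPI 24 h, and 213, 260.3 and 212 CPM per kb in control. The DPI 72 h libraries were below all others, and control replicate 2, a library in which short transcripts ran high, was the highest of the 9. The sum and the shares depend on the union exonic lengths, which weigh most against Map1lc3b, at 7.52 kb. Gabarap made up 44.9 ± 0.761% of this sum in DPI 72 h, 52.3 ± 1.18% in DPI 24 h and 49.7 ± 0.818% in control (SD, n = 3 each). Gabarapl1 made up 23.6 ± 1.07%, 18.7 ± 0.982% and 20.3 ± 2.02%, and Map1lc3b 7.33 ± 0.405%, 7.92 ± 0.177% and 6.61 ± 0.214% in the same groups. The share of Gabarap was therefore lowest, and that of Gabarapl1 highest, in DPI 72 h, with no overlap of either with DPI 24 h. Map1lc3a held 8.83 ± 0.396%, 6.71 ± 0.367% and 8.601 ± 0.263%, and Gabarapl2 15.3 ± 0.272%, 14.35 ± 0.498% and 14.8 ± 1.19%. Shares were set against each other in 15 two-sided exact permutation tests. With 3 libraries against 3 these cannot give a p under 0.1, so they could not decide whether any share changed. In 11 of the 15 the groups did not overlap and p was at that limit (lowest adjusted p 0.136). The 15 are not separate results, because the shares are parts of 1 sum and the pairs of groups reuse libraries. A share can also rise while the gene's own level does not. Gabarapl1 averaged 83.7 CPM in DPI 72 h, where its share was highest, 94.1 CPM in DPI 24 h and 92.6 CPM in control.

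**Figure D4:**
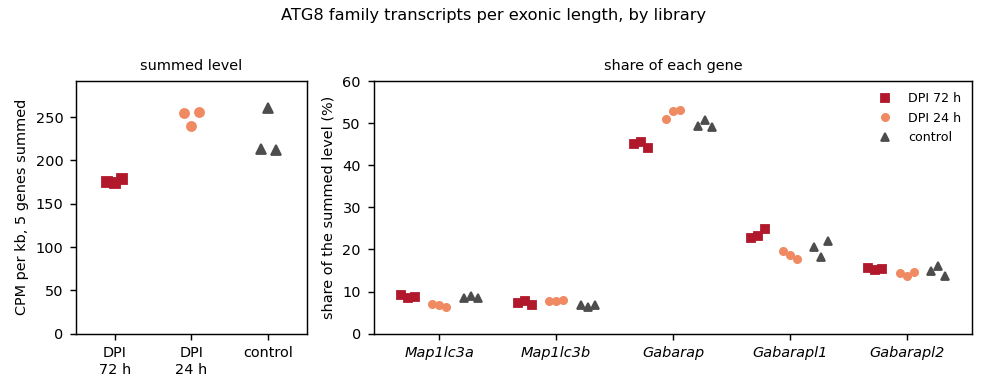
Left, the summed level of the 5 ATG8 genes in CPM per kb of exon, by library; right, the share of each gene in that sum (%), in DPI 72 h (red squares), DPI 24 h (orange circles) and control (grey triangles). The summed level is 174 to 178.5 in DPI 72 h, below every other library, and the Gabarap share there is 44.9 ± 0.761%, below both other groups.

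Among receptors, Sqstm1 fell at both times and furthest at 72 h. It encodes p62, which gathers ubiquitinated protein, and which also binds KEAP1, the repressor of NRF2. Sqstm1 (chr11:50199366-50210827, minus strand) had 587, 537 and 545 CPM in DPI 72 h, 683, 699 and 679 CPM in DPI 24 h and 927, 1055 and 907 CPM in control, means of 556 ± 26.8, 687 ± 10.4 and 963 ± 80.4 CPM (SD, n = 3 each). No group overlapped another, and the order was the same whichever library is left out. The level was 0.577 times that of control at 72 h and 0.713 times at 24 h. On the log2 scale the changes were -0.79 ± 0.067 and -0.49 ± 0.067, and -0.31 ± 0.067 at DPI 72 h against DPI 24 h (edgeR adjusted p = 3.24e-05, 0.000425 and 0.00791). All 3 calls were kept in 15 of 15 settings. Exons of Mrnip on the other strand overlap 17.3% of Sqstm1, with a mean count of 64.9 against 12240.

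Calcoco1, a receptor for the endoplasmic reticulum and Golgi (chr15:102706777-102722178), had 24.35, 28.05 and 25.5 CPM in DPI 72 h, 28.6, 29.5 and 29.7 CPM in DPI 24 h and 33.95, 29.2 and 35.8 CPM in control. The DPI 72 h libraries were below all others, by a narrow gap. It fell at DPI 72 h against control, with a log2 change of -0.34 ± 0.089 (edgeR adjusted p = 0.0383), a call lost in 11 of 15 settings (adjusted p 0.00261 to 0.146). At DPI 24 h against control its change of -0.17 ± 0.089 did not pass (edgeR adjusted p = 0.195), and without control replicate 2 it was -0.25 and passed (edgeR adjusted p = 0.0239). Nbr1, which acts beside p62 on ubiquitinated cargo, averaged 122 ± 1.09 CPM in DPI 72 h, 128 ± 2.63 CPM in DPI 24 h and 142 ± 11.3 CPM in control (SD, n = 3 each). Its log2 changes against control were -0.21 ± 0.065 at 72 h and -0.15 ± 0.065 at 24 h (edgeR adjusted p = 0.0735 and 0.126). Without control replicate 2 they were -0.28 and -0.21 and passed (edgeR adjusted p = 0.000743 and 0.00206). Tax1bp1, the second most abundant receptor per kb, had log2 changes of -0.083 and -0.02 against control at 72 h and 24 h. Optn averaged 2.18 ± 0.416 CPM in DPI 72 h, 1.58 ± 0.609 CPM in DPI 24 h and 2.27 ± 0.4385 CPM in control, and its standard errors of about 0.33 leave changes of this size undetectable at this depth.

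The rest of the pathway was described from 4 lists that hold 59 genes, all of which could be tested. At DPI 72 h against control 4 rose and 2 fell, 10.2% called beside 8.56% of all genes (edgeR, adjusted p under 0.05). For DPI 24 h against control 15 rose and 9 fell, 40.7% beside 24.7%. At DPI 72 h against DPI 24 h 5 rose and 14 fell, 32.2% beside 21.3%. The medians of their log2 changes were -0.042, 0.053 and -0.11, beside the medians of all genes given above. By list, 2 of the 18 upstream regulators were called at DPI 72 h against control (2 rose), 9 at DPI 24 h against control (6 rose) and 7 at DPI 72 h against DPI 24 h (2 rose), which is 11.1%, 50% and 38.9%. Of the 16 further receptors 2, 7 and 7 were called (12.5%, 43.8% and 43.8%), with 2, 4 and 3 rising. Of the 11 other early factors 1, 3 and 1 were called (9.09%, 27.3% and 9.09%), with 0, 2 and 0 rising, and of the 14 fusion genes 1, 5 and 4 (7.14%, 35.7% and 28.6%), with 0, 3 and 0 rising. These stand beside 8.56%, 24.7% and 21.3% of all genes, and in lists this short 1 gene moves the share by several points. Among the 16 further selective receptors, Bnip3, a receptor for mitophagy that is induced by hypoxia, had 185, 181 and 175 CPM in DPI 72 h, 50.3, 58.5 and 53.7 CPM in DPI 24 h and 74.5, 91.1 and 78.5 CPM in control. Every group stood clear of the others, with DPI 72 h highest and DPI 24 h lowest. Its log2 change was 1.15 ± 0.083 at 72 h and -0.59 ± 0.085 at 24 h against control (edgeR adjusted p = 1.28e-05 and 0.000613). Its paralog Bnip3l, or NIX, had 162, 164 and 160.2 CPM in DPI 72 h, 129, 135 and 137 CPM in DPI 24 h and 124, 112 and 116 CPM in control, with changes of 0.46 ± 0.059 and 0.19 ± 0.059 (edgeR adjusted p = 0.000555 and 0.04), the second lost in 10 of 15 settings.

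Stbd1, a receptor for glycogen, had 28.85, 25.02 and 29.03 CPM in DPI 72 h, 6.61, 8.16 and 8.57 CPM in DPI 24 h and 23.2, 29.7 and 23.15 CPM in control. It was low in the DPI 24 h libraries alone, with a log2 change of -1.70 ± 0.14 against control (edgeR adjusted p = 9.23e-06), and at 72 h its change was 0.12 ± 0.12 (edgeR adjusted p = 0.629). Retreg1, a receptor for the endoplasmic reticulum, went the other way: 34.98, 34.7 and 35.2 CPM in DPI 72 h, 55.97, 51.5 and 54.35 CPM in DPI 24 h and 40.1, 43.6 and 38.3 CPM in control. It rose at 24 h by 0.41 ± 0.068 (edgeR adjusted p = 0.00146). Among the 18 upstream regulators, 2 inhibitors of mTORC1 signalling had the groups in the same order as Bnip3. Sesn2 averaged 97.3 ± 7.43 CPM in DPI 72 h, 43.7 ± 0.157 CPM in DPI 24 h and 80.02 ± 4.88 CPM in control (SD, n = 3 each). Ddit4 averaged 178 ± 17.3 CPM in DPI 72 h, 72.8 ± 2.202 CPM in DPI 24 h and 119 ± 16.1 CPM in control (SD, n = 3 each). At 24 h against control their changes were -0.87 ± 0.073 and -0.71 ± 0.10, and at 72 h 0.28 ± 0.071 and 0.58 ± 0.098 (edgeR adjusted p = 1.36e-05, 0.000519, 0.0322 and 0.00351), where that of Sesn2 was lost in 7 of 15 settings. Sesn1, the paralog of Sesn2, and Deptor are in the same list, were looked at after their values were seen, and passed in no comparison. Their log2 changes against control were 0.012 and 0.23 at 72 h, and 0.11 and 0.011 at 24 h. Tsc1 and Tsc2, which together also hold mTORC1 back and were looked at after their values were seen, had another order. Tsc1 averaged 37.95 ± 1.5 CPM in DPI 72 h, 54.2 ± 3.71 CPM in DPI 24 h and 42.0 ± 7.95 CPM in control, with a log2 change of 0.37 ± 0.12 at 24 h against control and -0.51 ± 0.12 at 72 h against 24 h (edgeR adjusted p = 0.0457 and 0.012), calls lost in 7 and 1 of 15 settings. Its controls had 47.5, 32.9 and 45.7 CPM, so the low value of replicate 2 adds to the rise at 24 h. Tsc2 fell at 72 h against 24 h, with -0.27 ± 0.083 (edgeR adjusted p = 0.0421), a call lost in 8 of 15 settings. Bcl2, which binds Beclin 1, and Trp53inp2, which helps to recruit LC3, rose at 24 h by 0.60 ± 0.12 and 1.02 ± 0.18 (edgeR adjusted p = 0.00444 and 0.00219).

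**Figure D5:**
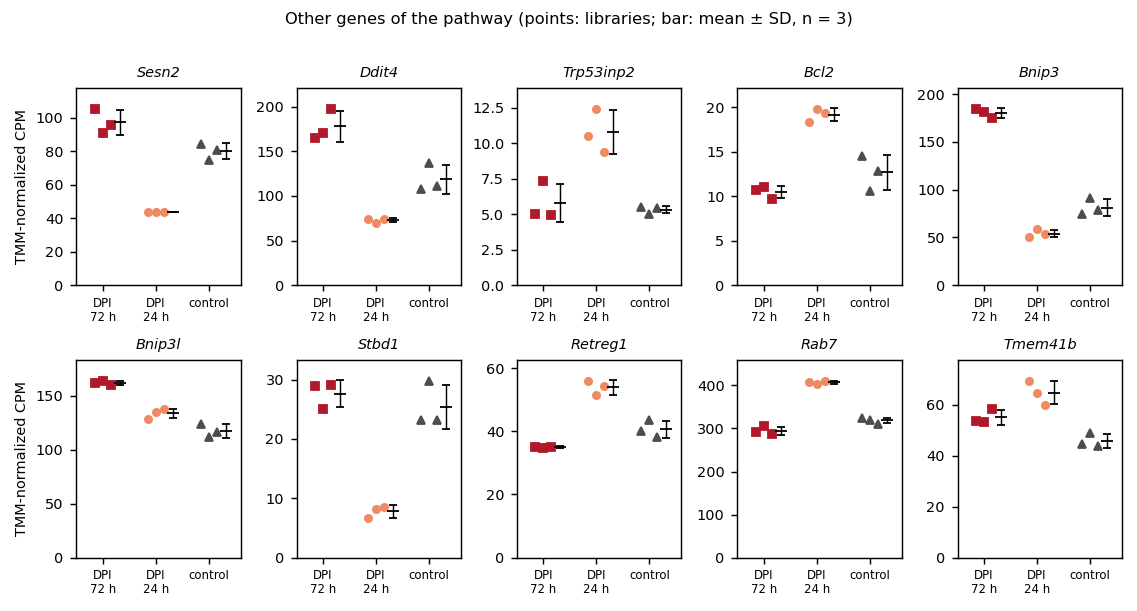
TMM-normalized CPM of 10 other genes of the pathway in DPI 72 h (red squares), DPI 24 h (orange circles) and control (grey triangles); each point is a library and bars are mean ± SD (n = 3). Sesn2, Ddit4 and Bnip3 are lowest in DPI 24 h and highest in DPI 72 h, Stbd1 is low in DPI 24 h alone, and Bcl2, Trp53inp2, Retreg1, Rab7 and Tmem41b are highest in DPI 24 h.

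Of 11 other early factors, Wdr45 fell at both times, with 32.5, 31.01 and 27.5 CPM in DPI 72 h, 33.8, 35.15 and 35.6 CPM in DPI 24 h and 39.6, 43.8 and 45.1 CPM in control. This relative of the WIPI genes changed by -0.50 ± 0.081 and -0.30 ± 0.08 (edgeR adjusted p = 0.00277 and 0.02), the second lost without control replicate 3 or DPI 24 h replicates 1 or 2 (adjusted p up to 0.0768). Tmem41b, a lipid scramblase, rose at 24 h by 0.50 ± 0.076, and Sh3glb1, whose product binds UVRAG, by 0.26 ± 0.055 (edgeR adjusted p = 0.000831 and 0.00668). Of 14 genes for fusion with the lysosome, Rab7, the GTPase of late endosomes, had 293, 305 and 287 CPM in DPI 72 h, 407, 404 and 410.1 CPM in DPI 24 h and 324, 320.5 and 312 CPM in control. Rab7 was highest at 24 h, with log2 changes of 0.35 ± 0.052 against control and -0.46 ± 0.052 at 72 h against 24 h (edgeR adjusted p = 0.000692 and 0.000108). Of the 6 subunits of the tethering complex HOPS in the list, Vps11, Vps33a and Vps41 were also lower at DPI 72 h than at DPI 24 h, with log2 changes of -0.41, -0.48 and -0.27 (edgeR adjusted p = 0.00288, 0.00388 and 0.00675). Vps16, Vps18 and Vps39 did not pass there, with 0.034, -0.25 and 0.075. Against control, Vps16 and Vps39 fell at DPI 24 h (-0.23 ± 0.06 and -0.32 ± 0.092, edgeR adjusted p = 0.0197 and 0.0249, lost in 3 and 4 of 15 settings), while Vps33a rose (0.33 ± 0.093, edgeR adjusted p = 0.0252, lost in 4 of 15 settings). The controls of Vps33a had 67.8, 51.1 and 59.3 CPM, with replicate 2 the lowest.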

How the data were processed

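Total RNA went through a TruSeq library kit and an Illumina HiSeq, giving 9 libraries, per the labels' protocols. STAR, RSEM, edgeR, limma, cutadapt, Trim Galore and the build GRCm38 are named in the submitters' processing notes, which say nothing here of their use or version. How strand and near-identical gene copies were handled is not given in the sources used here. Therefore counts of overlapping or antisense genes, and of genes with such copies, are uncertain. The authors deposited whole-number counts per Ensembl gene. A second deposited table, named as normalized, held 159498 values, each equal to the same count in the first, and was used only for that check. It covers 17722 genes.

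Symbols, coordinates and union exonic lengths came from GENCODE M21 (GRCm38), in which 191 IDs, with 0.0349% of counts, had no symbol. Genes were filtered with filterByExpr by group, scaled by TMM and fitted over all 9 libraries with 1 mean per group by the quasi-likelihood functions of edgeR 4.0.16 in R 4.3.3 (glmQLFit, then glmQLFTest; two-sided). Benjamini-Hochberg adjustment ran over the 14088 genes tested, at a threshold of 0.05. Standard errors are the log2 change over the root of the quasi-likelihood F, and intervals are 1.96 of these either side. Such intervals are narrower than 95% intervals of the F test. For Atg4d at DPI 24 h against control the interval of -0.348 to -0.003 left out 0, with an unadjusted edgeR p of 0.0721. CPM values are TMM-normalized. CPM per kb divides by exonic length, and only such values are compared between genes. In a simulation of DPI 24 h against control on 13826 genes with 200 changed, the fit recovered 55.2% of those changed 1.5-fold, 85.1% at 2-fold and 86.4% at 4-fold, and 4.43% of calls were unchanged genes. Its counts were drawn gene by gene from the fitted spread, with no library that ran with transcript length. These shares therefore need not hold for the real libraries.

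Values are given for members called in at least 1 comparison, the member highest per kb in each role, and the 4 genes of smallest p in each other list. Others appear as ranges or as paralogs, partners or overlapping genes, some chosen after their values were seen. The members and lists were chosen with earlier results of these data known. Libraries of a group differed beyond counting noise (chi-square per degree of freedom 3.68 to 33.7), and each was counted once. The replicate number was not used as a pairing in the fit. Alternatives were the size factors of DESeq2 1.42.0, its Wald test, limma 3.58.1 voom, no filter, the groups compared alone, a threshold of 0.01, a replicate block and a fit without each library in turn.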

Additional observations from a re-analysis of the deposited data

Results flagged for a closer look

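The effect at 72 h differed from that at 24 h for 8 members, tested directly as DPI 72 h against DPI 24 h in edgeR over all genes. That is 22.9% of members, close to the 21.3% of all genes called there. The calls of Atg13, Gabarapl2 and Atg2a were lost in 10, 6 and 5 of 15 settings. On the log2 scale, the 72 h effect minus the 24 h effect was -0.73 for Gabarap, -0.62 for Map1lc3b, -0.59 for Uvrag, 0.52 for Ulk2, -0.41 for Gabarapl2, -0.33 for Atg2a, -0.31 for Sqstm1 and -0.28 for Atg13. Against control, Map1lc3b, Uvrag and Atg2a rose at 24 h and did not pass at 72 h, Ulk2 fell at 24 h and did not pass at 72 h, Gabarap and Atg13 passed at 72 h alone, Sqstm1 fell at both times and Gabarapl2 passed at neither.

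A difference between the times was also called for 13 of the pathway genes named by smallest p. These genes were picked by p over the 3 comparisons, this one included, so a high count among them follows from the choice. Of all 59 genes in the lists 19 were called, 32.2% beside 21.3% of all genes tested. The difference was positive for Stbd1 (1.83), Bnip3 (1.73), Ddit4 (1.29), Sesn2 (1.15) and Bnip3l (0.28). It was negative for Trp53inp2 (-0.89), Bcl2 (-0.87), Retreg1 (-0.63), Vps33a (-0.48), Rab7 (-0.46), Vps11 (-0.41), Zfyve1 (-0.30), which encodes a marker of omegasomes, and Vps41 (-0.27). The call of Zfyve1 was lost in some settings (edgeR adjusted p up to 0.112). Groups of 3 libraries are too small for a test of single outlying libraries.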

How the results depend on the processing

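Of the 18 member calls, 12 were kept in all 15 settings, 6 were lost in some and 0 changed sign. The number of members called at DPI 72 h against control, 4, became 2 with the groups compared alone, 2 with a replicate block and 2 at a threshold of 0.01, and 2 to 5 with each library left out. Over all genes it became 774 with the groups compared alone, 627 at 0.01, and 736 to 1965 with each library left out, the highest without control replicate 2. At DPI 24 h against control, 1904 genes passed at 0.01, and 5 to 12 members with each library left out. The 12 came without control replicate 2 (34.3% of members, beside 30.6% of all genes). At DPI 72 h against DPI 24 h, 13 members and 4660 genes passed with the groups compared alone, 5 and 1590 at 0.01, and 5 to 13 and 1953 to 4729 with each library left out. The highest of both again came without control replicate 2, where 32.8% of genes passed. The cause was not tested.

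Member medians with each library left out ran from -0.14 to -0.097 at DPI 72 h and from -0.093 to -0.054 at DPI 24 h against control, and from -0.12 to -0.069 at DPI 72 h against DPI 24 h. The Gabarapl2 share of ATG8 transcripts changed sign at DPI 24 h against control without control replicate 2 (0.13 percentage points, in a range from -1.06) and at DPI 72 h against control without control replicate 3 (-0.068, in a range up to 1.13). With a replicate block, 6, 2 and 6 members and 3000, 911 and 2533 genes passed at 24 h against control, 72 h against control and 72 h against 24 h. Deviations of libraries with the same number correlated between -0.0925 and 0.0027, and those with other numbers at up to 0.0943. This shows no pairing by number, but it cannot exclude a shared culture or preparation. With 3 libraries a group, members near 2 CPM carried standard errors of about 0.3 on the log2 scale.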
